A study of Mus musculus with 46 samples.

Results

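Gene expression in the cerebellum was compared between mice whose second Adar allele lacks or makes the p150 isoform of ADAR1. All animals were C57BL/6 mice at postnatal day 23, and all carried the P195A change in one Adar allele, so the p150-positive animals carry the changed protein too. The p150-negative animals, labelled P195A_p150neg, had a second Adar allele that makes no p150. The p150-positive animals, labelled P195A_p150pos, had a second allele that does make p150. The measurements were RNA-seq read counts per gene in 15 cerebella, 8 p150-negative (animals 1, 2, 3, 8, 9, 11, 14 and 16) and 7 p150-positive (animals 4, 5, 6, 10, 12, 13 and 15), out of 46 libraries of cerebellum, liver and kidney. Whole tissue was extracted, so each value is an average over many cell types.

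ADAR1 converts adenosine to inosine in double-stranded RNA. Its interferon-inducible isoform p150 is found mostly in the cytoplasm and holds the Zα domain, which binds RNA and DNA in the left-handed Z form and in which P195A lies. Unedited double-stranded RNA can be bound by sensors such as MDA5 (gene Ifih1), and signalling through MAVS then leads to type I interferon. Interferon acts through factors that include STAT2 and IRF9 to switch on a large set of antiviral genes, and the kinase PKR (gene Eif2ak2) and the Z-form sensor ZBP1 are among them. The cerebellum holds neurons such as granule and Purkinje cells, Bergmann glia and other astrocytes, oligodendrocytes, microglia and vessels.

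Library totals were 944811 to 5467627 counts in p150-negative and 2896170 to 6237043 counts in p150-positive cerebella. The shallowest was that of p150-negative animal 11, and the next lowest total was 2068753. The cerebellar identity genes Pcp2, Gabra6, Cbln3 and Neurod1 passed the tissue check (at least 10% of the label's median sum) in all 15. The p150-positive library labelled cerebellum of animal 7 was left out, because its identity genes were at 0.825% of the median of the label and its Hox genes summed to 214.8 CPM (counts per 1000000 counts of the library), against 0 to 10.5 CPM in the others. Of the p150-negative animals 5 expressed Xist and 3 expressed Y-linked genes, and of the p150-positive animals 2 and 5 did, so a fit with Xist as a covariate was run as well. One p150-negative library, that of animal 2, stood apart from its group in interferon-induced genes, and main results are given with and without it. As it was picked by its low interferon-induced genes, their larger differences without it follow in part from that choice. The same holds for their smaller p-values and lesser overlap, so these are a description and no further support.

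p150-negative cerebella had more RNA of interferon-induced genes than p150-positive cerebella. Tested genes of granule and Purkinje cells, of myelin and of the integrated stress response were not called by edgeR. As 0.997% of all tested genes were called, lists of 19 to 31 tested genes would hold few or no calls at that share. By edgeR's quasi-likelihood test, 95 of 13146 tested genes (0.723%) were higher and 36 (0.274%) were lower (0.997% in either direction) at an adjusted p under 0.05, and 1258 genes had an unadjusted p under 0.05. Of the 95 higher genes, 64 belonged to lists of interferon-induced, RNA-sensing, interferon-signalling, interferon-gamma-responsive, MHC class I or chemokine genes, 15 to other lists, and 16 to none. Of these 95, 89 had a log2 fold change of 1 or more and 44 one of 3 or more. Changes in the other direction were smaller, with 12 of the 36 lower genes at -1 or below. The median log2 fold change was 2.74 among the genes called higher and -0.77 among those called lower, beside 0.0035 over all genes tested. No label says whether the animals are litter mates or were processed together, and p-values measure the spread between these animals.

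Without animal 2, 113 genes of 12998 (0.869%) were higher and 25 (0.192%) were lower, 1.06% in all. These held 92 of the 95 and 25 of the 36. With Xist as a covariate, 92 were higher (0.7%) and 24 lower (0.183%), 0.882% in all, 85 and 22 of them shared with the calls above. By limma voom 28 genes were higher with all 15 libraries and 113 without animal 2. Leaving out any other single library left 72 to 115 higher and 18 to 64 lower genes. The count of lower genes came to 19 without animal 3, 64 without animal 11, 18 without animal 4, 21 without animal 6, 22 without animal 10, 19 without animal 12 and 19 without animal 15. In all, 73 of the 95 higher genes and 17 of the 36 lower genes were called in every one of these fits that tested them. Leaving out a p150-negative animal other than animal 2 left 121 or 122 of the 131 called genes above the count filter. Oas1b and Slfn8, for instance, were tested in 8 of the 15 fits that left out 1 library, so their calls did not face the others.

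The interferon-induced effector genes gave the largest differences. Ifit1, whose protein binds the ends of viral RNA, had 8.05, 361 and 485 CPM as the lowest, median and highest value of p150-negative cerebella, against 0, 8.11 and 20.2 CPM in p150-positive cerebella. Apart from animal 2, which held the 8.05 CPM, the groups did not overlap, and the next lowest p150-negative value was 207 CPM. The log2 fold change was 5.07 ± 0.68 (SE; adjusted p = 0.000384), and 5.26 (adjusted p = 2.05e-06) without animal 2. Ifit1 lies on GRCm38 chromosome 19, 34640871 to 34650009, plus strand, beside its relatives Ifit3 and Ifit3b. Ifit3 had 21.6, 484 and 592 CPM in p150-negative cerebella, against 6.89, 22.0 and 44.0 CPM in p150-positive cerebella (4.17 ± 0.50, adjusted p = 0.000184). Isg15, a ubiquitin-like modifier, had 2.56, 90.6 and 152 CPM in p150-negative and 1.76, 3.84 and 10.0 CPM in p150-positive cerebella (3.94 ± 0.56, adjusted p = 0.000626). For each of them animal 2 held the lowest p150-negative value and lay within the p150-positive range.

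Some of the genes called higher are shown by the bases just before their start sites, because the element through which the interferon-activated factors bind can be read in them. Each stretch is the 200 bases before the annotated start (RefSeq, GRCm38.p6), 5′ to 3′ on the gene's strand, and capitals mark matches to the core of the interferon-stimulated response element, which is GAAA, any 2 bases and GAAA, on either strand. The genes are the first 4 by adjusted p of the interferon-induced list that had such a match there.
Ifit3: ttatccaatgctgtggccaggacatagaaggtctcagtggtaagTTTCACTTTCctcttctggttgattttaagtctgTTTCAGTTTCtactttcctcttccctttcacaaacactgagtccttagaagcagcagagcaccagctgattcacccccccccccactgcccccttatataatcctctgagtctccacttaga
Ifit3b: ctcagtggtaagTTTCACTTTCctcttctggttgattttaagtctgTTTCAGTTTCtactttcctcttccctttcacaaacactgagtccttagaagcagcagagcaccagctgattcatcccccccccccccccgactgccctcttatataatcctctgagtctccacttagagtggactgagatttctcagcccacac
Ifit1: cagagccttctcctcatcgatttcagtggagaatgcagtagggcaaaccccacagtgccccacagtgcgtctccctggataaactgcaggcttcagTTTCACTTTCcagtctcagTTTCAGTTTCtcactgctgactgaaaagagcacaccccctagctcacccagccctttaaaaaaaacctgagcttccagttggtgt
Isg15: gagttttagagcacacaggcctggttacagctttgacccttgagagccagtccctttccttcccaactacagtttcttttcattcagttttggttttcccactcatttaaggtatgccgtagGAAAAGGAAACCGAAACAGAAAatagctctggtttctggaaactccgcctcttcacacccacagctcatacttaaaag
These stretches lie at chr19:34583329-34583528 (Ifit3), chr19:34607757-34607956 (Ifit3b) and chr19:34640689-34640888 (Ifit1), all on the plus strand, and at chr4:156200819-156201018 (Isg15, minus strand). Matches began 156 and 122 bases before the start of Ifit3, and 188 and 154 bases before that of Ifit3b. In Ifit1 they began 104 and 85 bases before the start, and in Isg15 there were 3 overlapping matches, the first 78 bases before it. Ifit3 and Ifit3b carry near-identical copies, and reads of the 2 transcripts may be shared or dropped by counting. The same holds for the Oas1, H2-Q, Hba and Hbb families, so single members of these are uncertain.

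Across genes, 72 of the 95 genes called higher had a promoter in this table (250 bases before to 50 after the start, 1 or more per gene), and 31 of them (43.1%) held this core on either strand. Among all tested genes with a promoter the share was 3.65% (366 of 10015), and over all 32851 promoters of the table it was 3.44%. Among genes called lower, 1 of 29 held it. Within the interferon-induced list, 16 of 32 called members held it, and outside that list 15 of 40 genes called higher did (37.5%). The gamma-activated site TTCNNNGAA, an element of the response to interferon gamma, was in 18.1% of genes called higher and in 8.08% of all tested genes. TGATGNAA, the core of the element that ATF4 binds with its partners, was in 8 of 25 tested members of the ATF4 target list (32%) and in 2.61% of all tested genes, yet no member of that list was called. A match in these windows is a description of the letters, not evidence of binding.

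In the interferon-induced list, 41 of 57 members were called higher and none lower, where 0.723% of all tested genes were called higher. Counts of higher calls in the other cerebellum lists below stand beside that same share, and counts of lower calls beside 0.274%. Another 12 were tested and not called, and 4 were too low to be tested. All 53 tested members had a positive log2 fold change, with a median of 3.14. Without animal 2, 43 were called and the median was 3.32. DESeq2 called 44 with all 15 libraries and 47 without animal 2, but limma voom called 6 and 43. With all 15 libraries the limma voom adjusted p was 0.274 for Ifit1, 0.363 for Isg15 and 0.364 for Usp18. The largest estimates were those of Oas1b (6.35 ± 0.81, adjusted p = 0.000236), a relative of the oligoadenylate synthetases, Ifi27l2a (6.01 ± 0.73, adjusted p = 0.000184), a mitochondrial protein, and Slfn8 (5.95 ± 1.02, adjusted p = 0.00316). Ifi27l2a had 4.02, 155 and 505 CPM in p150-negative cerebella, against 1.35, 2.35 and 7.43 CPM in p150-positive cerebella. Usp18, which removes ISG15 from proteins and damps interferon receptor signalling, had 3.48, 238 and 271 CPM in p150-negative and 1.49, 4.80 and 11.4 CPM in p150-positive cerebella (5.37 ± 0.64, adjusted p = 0.000184). Oasl2 (5.35 ± 0.78), Oas1a (4.65 ± 0.67), Rtp4 (4.26 ± 0.49), Ifit3b (3.99 ± 0.51), Bst2 (3.22 ± 0.51) and Ifitm3 (2.69 ± 0.38), which blocks viral entry, were also called. Lgals3bp, a secreted glycoprotein, had 19.4, 194 and 418 CPM in p150-negative and 5.55, 21.7 and 42.0 CPM in p150-positive cerebella (3.32 ± 0.50, adjusted p = 0.000895).

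**Figure D1:**
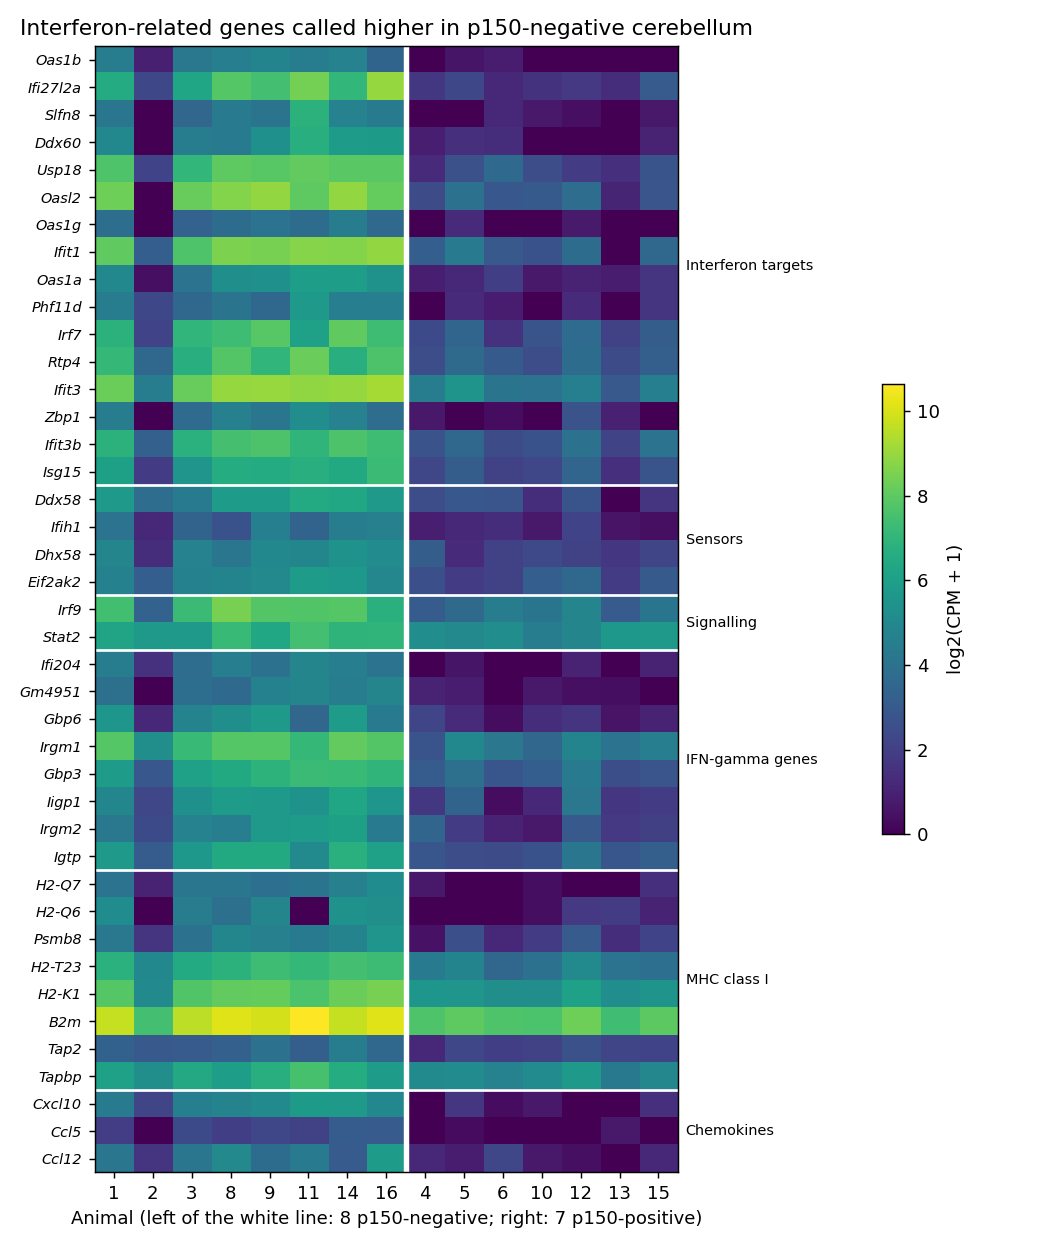
Levels of 41 genes called higher in p150-negative cerebella, from those with the largest fold changes in each of 6 lists (up to 16 interferon targets and 8 of each other list), as log2(CPM + 1) by colour, with 1 row per gene and 1 column per animal, the 8 p150-negative animals on the left and the 7 p150-positive on the right. The column of animal 2 is as dark as the p150-positive columns for most of these genes, as with Ifit1 at 8.05 CPM.

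The summed level of the interferon-induced list showed the split by animal. It was 3520 to 6122 CPM in the 7 p150-negative animals other than animal 2, 509 CPM in animal 2, and 428 to 895 CPM in the p150-positive animals. Within the parts of the animal identifiers, whose meaning the labels do not give, the direction was the same. Animals 1 and 3 of the first part had 4095 and 3520 CPM, against 488, 748 and 508 CPM in p150-positive animals 4, 5 and 6 of that part, to which animal 2 also belongs. In the second part the p150-negative animals 8, 9 and 11 had 5612, 5677 and 5523 CPM, against 486 and 895 CPM in animals 10 and 12. In each of the last 2 parts there was 1 animal per group, with 6122 CPM against 428 CPM and 6062 CPM against 622 CPM.

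Animal 2 lay at or below the highest p150-positive value in 62 of the 95 genes called higher and was the lowest p150-negative animal in 80 of them. Among the 36 genes called lower it was the highest p150-negative animal in 6. It lay above all p150-positive animals for C4b, C1qa, Lcn2, Lrg1, Ackr1, Vwf, Th and Gpx3, among others. In the interferon and chemokine lists it did so for Cxcl10, Ddx58, Irgm1, Ifi204, Stat2 and Oas1b, among others. The margin was small for Stat2 (53.2 CPM against at most 52.7 CPM) and Oas1b (0.91 CPM against at most 0.81 CPM). Animal 2 lay below all p150-positive animals for genes that included Slc47a1, Alas2, Hba-a1, Dio2, Fabp7 and Itm2a. Over all tested genes, the CPM ranges of the groups did not overlap for 30 genes in the higher (0.228%) and 31 in the lower direction (0.236%), and without animal 2 for 117 (0.89%) and 38 (0.289%). Among the called genes, 23 of the 95 higher and 14 of the 36 lower ones did not overlap, and 83 of the 95 did not overlap without animal 2. The libraries labelled liver and kidney of animal 2 did not hold those tissues, with identity genes at 0.019% and 0.0% of the median of the label, while its cerebellum library had 95.3% of the median for cerebellum. Whether an exchange of samples or labels reached its cerebellum library was not tested.

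Among sensors of double-stranded and Z-form RNA, 5 of 23 listed genes were called higher, 12 were tested and not called, and 6 were too low. Ddx58, the gene of RIG-I, had 12.8, 54.6 and 91.0 CPM in p150-negative cerebella, against 0, 4.70 and 6.49 CPM in p150-positive cerebella, and the groups did not overlap (3.73 ± 0.56, adjusted p = 0.000895). Ifih1 (MDA5) had 1.28, 12.6 and 23.7 CPM in p150-negative and 0.338, 0.854 and 3.45 CPM in p150-positive cerebella (3.44 ± 0.62, adjusted p = 0.00567). Eif2ak2 (PKR), which phosphorylates eIF2α when it binds double-stranded RNA, had 8.05, 28.2 and 58.2 CPM in p150-negative and 2.73, 5.12 and 10.7 CPM in p150-positive cerebella (2.44 ± 0.41, adjusted p = 0.00249). Dhx58 (LGP2) was called as well (2.74 ± 0.49, adjusted p = 0.00564). For Ifih1, Eif2ak2 and Dhx58 the ranges overlapped through animal 2.

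Zbp1, which starts necroptosis when it binds Z-form nucleic acid, had 0, 18.9 and 36.0 CPM in p150-negative cerebella, against 0, 0.271 and 5.53 CPM in p150-positive cerebella. Animal 2 was the one p150-negative animal at 0, and the next lowest of its group was above every p150-positive animal. The log2 fold change was 4.10 ± 0.92 (adjusted p = 0.0331), and 4.30 (adjusted p = 0.00291) without animal 2. With all 8 p150-negative animals the call was fragile, since leaving out any one of animals 1, 3, 8, 9, 14, 4, 5, 6, 10, 13 and 15 gave an adjusted p of at least 0.05, up to 0.0931. Adar itself, counted over all its isoforms, was not called: it had 17.6, 28.1 and 87.9 CPM in p150-negative cerebella and 14.4, 23.3 and 39.0 CPM in p150-positive cerebella (0.43 ± 0.31, adjusted p = 0.723). The 87.9 CPM belonged to the shallow library of animal 11. As gene counts sum over isoforms, they do not check the p150 genotype. Mavs, the adaptor downstream of MDA5 and RIG-I, was not called (-0.57 ± 0.45, adjusted p = 0.753), while Ifnb1 did not reach the count filter.

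In interferon signalling, 4 of 18 listed genes were called higher, Irf7, Irf9 and Stat2 among them. Irf7, the factor that amplifies interferon production, had 3.48, 145 and 265 CPM in p150-negative cerebella, against 1.90, 5.76 and 12.1 CPM in p150-positive cerebella (4.46 ± 0.61, adjusted p = 0.000411). Irf9 differed by 3.51 ± 0.50 (adjusted p = 0.000626) and Stat2 by 1.45 ± 0.26 (adjusted p = 0.00568). Stat2, with 53.2 to 174 CPM in p150-negative and 21.4 to 52.7 CPM in p150-positive cerebella, did not overlap even with animal 2 included.

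**Figure D2:**
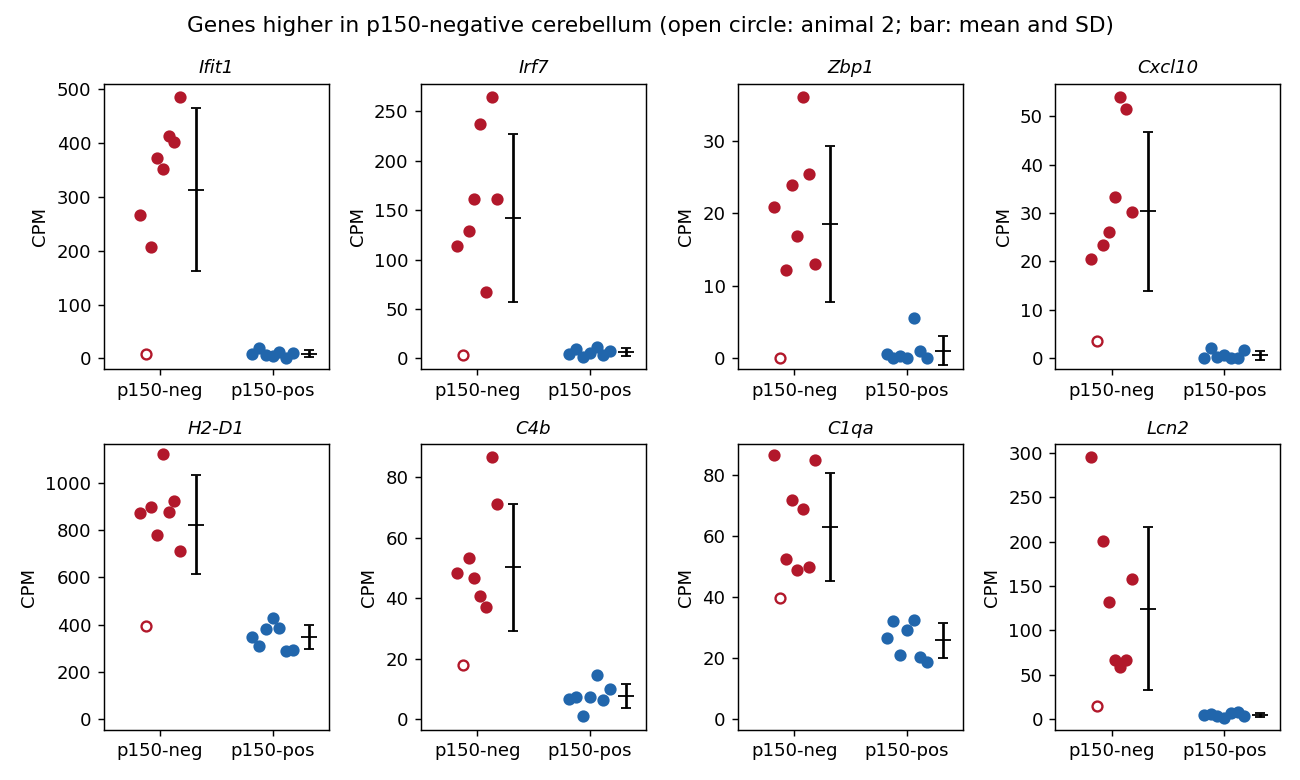
CPM of 8 genes in each animal, p150-negative on the left and p150-positive on the right of each panel, with the group mean and SD as a bar and animal 2 as an open circle. Animal 2 lies among the p150-positive animals for Ifit1, Irf7, Zbp1 and H2-D1 and above all of them for Cxcl10, C4b, C1qa and Lcn2.

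In a list of immunity-related GTPases, guanylate-binding proteins and further targets of interferon gamma, 9 of 23 were called higher, with 8 tested and not called, 5 too low and 1 not matched. All 17 tested members had a positive log2 fold change (median 3.00), and 13 were called without animal 2. By limma voom 2 were called with all 15 libraries and 12 without animal 2. Irgm1 had 37.3, 223 and 270 CPM in p150-negative cerebella, against 5.76, 17.9 and 30.5 CPM in p150-positive cerebella, with no overlap (3.29 ± 0.38, adjusted p = 0.000165). Gbp3 (3.25 ± 0.49, adjusted p = 0.000895) and Igtp (3.00 ± 0.44, adjusted p = 0.00077) overlapped through animal 2, at 6.40 and 7.68 CPM. Ifi204, a DNA-sensing family member, had 1.83, 18.6 and 27.5 CPM in p150-negative and 0, 0 and 1.04 CPM in p150-positive cerebella (5.60 ± 0.75, adjusted p = 0.000384).

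For MHC class I presentation, 11 of 21 listed genes were called higher, 7 were tested and not called, and 3 were too low. The 18 tested members all had positive estimates, with a median of 1.67, and 14 were called without animal 2. By limma voom 3 were called with all 15 libraries and 13 without animal 2. Calls in this list numbered 7 with Xist as a covariate, 6 without animal 3, 9 or 14 and 7 without animal 1, 16, 6, 10 or 15. B2m, the light chain shared by class I molecules, had 177, 920 and 1602 CPM in p150-negative cerebella, against 166, 210 and 310 CPM in p150-positive cerebella (1.99 ± 0.29, adjusted p = 0.000714). H2-K1 and H2-D1, the classical heavy chains of this strain, differed by 2.34 ± 0.33 (adjusted p = 0.000523) and 1.20 ± 0.17 (adjusted p = 0.000626). H2-D1 had 395, 875 and 1121 CPM in p150-negative and 288, 347 and 427 CPM in p150-positive cerebella, and the 395 CPM of animal 2 made the overlap. Psmb8, an immunoproteasome subunit (2.85 ± 0.57, adjusted p = 0.0118), and H2-T23 (2.63 ± 0.32, adjusted p = 0.000184) were called too.

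Of 22 listed chemokines and cytokines, 15 were too low to be tested and 3 were called higher. Cxcl10, which attracts T cells, had 3.66, 28.1 and 54.0 CPM in p150-negative cerebella, against 0, 0.271 and 2.25 CPM in p150-positive cerebella (5.41 ± 0.72, adjusted p = 0.000384). The lowest p150-negative value was again that of animal 2, yet it lay above every p150-positive animal. Ccl12 (4.08 ± 0.72, adjusted p = 0.00457) and Ccl5 (4.34 ± 0.87, adjusted p = 0.0122) were the other calls. Markers of T, B and natural killer cells were near the limit, with 2 of 20 tested and none called by edgeR, DESeq2 or limma voom (none at an unadjusted p under 0.05).

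Of 17 complement genes, 4 were called higher, where 0.723% of all tested genes were. Another 9 were tested and not called, and 4 were too low. C4b, a classical-pathway component that astrocytes express, had 17.9, 47.7 and 86.6 CPM in p150-negative cerebella, against 1.08, 7.24 and 14.5 CPM in p150-positive cerebella, with no overlap (2.69 ± 0.39, adjusted p = 0.000626). The chains of C1q, a microglial product in brain, were called: C1qa had 39.5, 60.7 and 86.5 CPM in p150-negative and 18.6, 26.7 and 32.5 CPM in p150-positive cerebella (1.24 ± 0.21, adjusted p = 0.00305), and C1qb and C1qc differed by 1.08 ± 0.20 (adjusted p = 0.00583) and 1.24 ± 0.24 (adjusted p = 0.00918). Lcn2, an iron-siderophore binding protein made by reactive astrocytes, endothelium and neutrophils, had 15.0, 99.3 and 295 CPM in p150-negative cerebella, against 1.60, 5.12 and 8.02 CPM in p150-positive cerebella, with no overlap (4.56 ± 0.52, adjusted p = 0.000165). Of 21 reactive astrocyte genes, 5 were called higher (Lcn2 and Psmb8 among them), 14 were tested and not called, and 2 were too low. Serpina3n, a member, was called (1.63 ± 0.34, adjusted p = 0.02), and the call was lost when animal 1, 3, 10 or 15 was left out (adjusted p up to 0.0619).

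Microglial markers were called for 5 of 25 listed genes, with a median log2 fold change of 0.87 over the 24 tested. Besides the C1q chains these were Ctss, a lysosomal protease, at 71.3, 217 and 439 CPM in p150-negative and 47.8, 69.4 and 84.2 CPM in p150-positive cerebella (1.76 ± 0.27, adjusted p = 0.000974), and Fcer1g (1.59 ± 0.35, adjusted p = 0.0291), whose call was lost in 9 of 15 fits that left out 1 library (adjusted p up to 0.0746). In the reactive microglia list 2 of 25 were called higher, 17 were tested and not called, and 6 were too low. Of the 24 tested genes of the first list, 20 had positive estimates and 18 an unadjusted p under 0.05 by edgeR. DESeq2 called 8 of that list higher with all libraries and 14 without animal 2, and limma voom 4 and 8. The homeostatic markers P2ry12 (-0.11 ± 0.35, adjusted p = 0.963) and Cx3cr1 (0.86 ± 0.33, adjusted p = 0.363) were not called by edgeR. Aif1, the gene of IBA1, stood at 1.52 ± 0.37 with adjusted p = 0.055, and at 1.63 with adjusted p = 0.0319 without animal 2. Summed over the list, the level was 542 to 1723 CPM in p150-negative and 424 to 869 CPM in p150-positive cerebella, with animal 2 at 542 CPM. In bulk tissue, more or fewer cells of a type cannot be told apart from more or less RNA per cell.

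Genes of activated endothelium also differed. Ackr1, an atypical chemokine receptor of venules, had 39.0, 122 and 210 CPM in p150-negative cerebella, against 7.94, 18.6 and 30.8 CPM in p150-positive cerebella, with no overlap (2.52 ± 0.31, adjusted p = 0.000211). Lrg1, a secreted glycoprotein, had 4.21, 21.2 and 75.2 CPM in p150-negative and 0, 1.04 and 1.75 CPM in p150-positive cerebella (4.76 ± 0.63, adjusted p = 0.000323). Vwf, the von Willebrand factor gene, had 11.7, 32.4 and 56.0 CPM in p150-negative and 3.52, 4.49 and 6.76 CPM in p150-positive cerebella, also without overlap (2.58 ± 0.33, adjusted p = 0.000236). Of the 14 genes in the activated endothelium list, which does not hold Vwf, 3 were called (Ackr1, Lrg1 and Lcn2), 7 were tested and not called, and 4 were too low, with Icam1 at 1.95 ± 0.53 (adjusted p = 0.0995, and 0.0109 without animal 2). Of 22 general endothelial and mural markers, Ly6a was called higher (1.43 ± 0.28, adjusted p = 0.00983) and Itm2a lower. Neutrophil markers S100a8 (1.64 ± 0.53, adjusted p = 0.226) and S100a9 (1.49 ± 0.53, adjusted p = 0.298) were not called, and 8 of the 16 listed were too low. The neutrophil list summed to 69.1 to 550 CPM in p150-negative and 32.4 to 113 CPM in p150-positive cerebella. Lcn2 is one of its members, with 295 of the 354 CPM of animal 1 and 158 of the 550 CPM of animal 16. The part of such cells in the result was not tested.

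**Figure D3:**
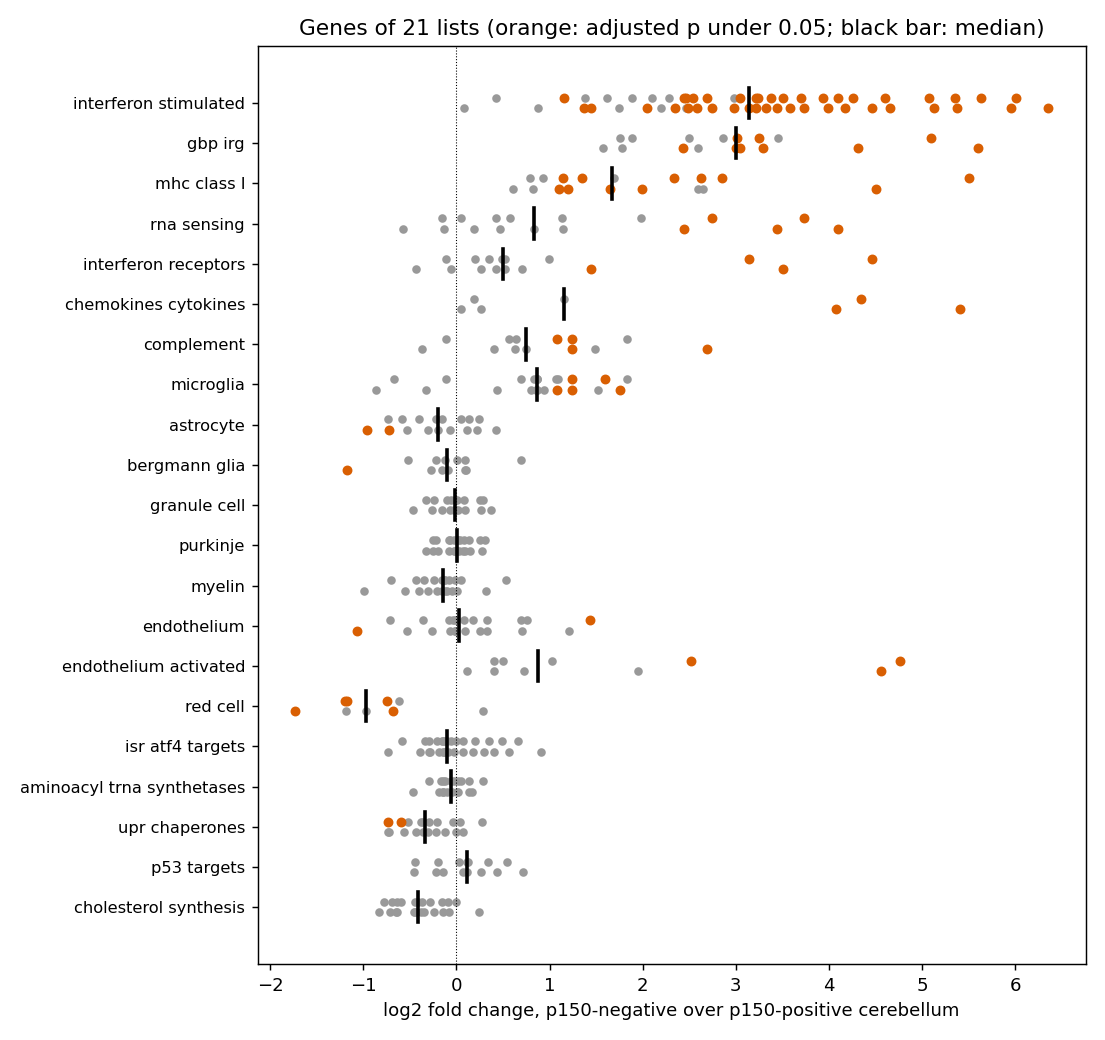
Log2 fold change of each tested gene in 21 lists, p150-negative over p150-positive cerebellum, with 1 row per list, genes with adjusted p under 0.05 in orange, others in grey, and the list median as a black bar. The medians are 3.14 for interferon-induced genes and 3.00 for the list of GTPases and other interferon-gamma-responsive genes, and lie between -0.97 (red cells) and 0.88 (activated endothelium) for the lists from microglia downwards.

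Genes of the integrated stress response were not called in cerebellum, where 0.997% of all tested genes were called in either direction. PKR phosphorylates eIF2α, and ATF4 is then translated and induces genes of amino acid supply. Of 38 listed ATF4 targets, 31 were tested and none was called in either direction by edgeR, with a median log2 fold change of -0.10, 5 of them at an unadjusted p under 0.05. DESeq2 and limma voom called none either, with or without animal 2. Asns, the asparagine synthetase gene, had 119, 156 and 222 CPM in p150-negative cerebella, against 162, 187 and 221 CPM in p150-positive cerebella (-0.29 ± 0.13, adjusted p = 0.464). Atf4 (-0.15 ± 0.14, adjusted p = 0.802), Ddit3 (-0.21 ± 0.19, adjusted p = 0.802), Chac1 (-0.01 ± 0.38, adjusted p = 0.996) and Psat1 (-0.30 ± 0.12, adjusted p = 0.433) were also not called. Trib3 was too low to be tested, with 0, 4.34 and 21.2 CPM in p150-negative and 0, 0.345 and 1.60 CPM in p150-positive cerebella, and Atf3 and Gdf15 were too low as well. The 20 genes of the aminoacyl-tRNA synthetases, which charge tRNAs, had no call by edgeR, DESeq2 or limma voom (median -0.06, 2 at an unadjusted p under 0.05).

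Other stress lists held some calls by edgeR, where 0.274% of all tested genes were called lower and 0.723% higher. In the list of endoplasmic reticulum chaperones, Pdia6 (-0.59 ± 0.14, adjusted p = 0.0419) and Pdia4 (-0.73 ± 0.18, adjusted p = 0.0492), protein disulfide isomerases, were called lower, and neither was called without animal 2 (adjusted p = 0.0828 and 0.096). Hspa5 (BiP) stood at -0.52 ± 0.13 (adjusted p = 0.0765), and 17 of the 20 tested genes of the list had negative estimates. Of these 20, 2 were called lower and 9 had an unadjusted p under 0.05 by edgeR. DESeq2 called 4 lower, both with and without animal 2, and limma voom called none. Of 15 p53 targets tested, none was called by edgeR, DESeq2 or limma voom and 1 had an unadjusted p under 0.05, with Cdkn1a at 15.9, 103 and 202 CPM in p150-negative and 38.2, 74.4 and 86.1 CPM in p150-positive cerebella (0.44 ± 0.33, adjusted p = 0.742). The cold-inducible RNA-binding proteins Rbm3 and Cirbp were called higher. They were 2 of 12 tested heat shock and cold-inducible genes, of which 6 had an unadjusted p under 0.05. Rbm3 had 104, 144 and 181 CPM in p150-negative and 43.5, 66.9 and 105 CPM in p150-positive cerebella, so the ranges just met (0.94 ± 0.19, adjusted p = 0.013). Cirbp (1.14 ± 0.27, adjusted p = 0.0487) was not called without animal 2, its highest value (adjusted p = 0.0986). With all 15 libraries, immediate early genes of neuronal activity were not called by edgeR or limma voom (5 of 12 at an unadjusted p under 0.05), and DESeq2 called 1. Of the 12 tested, 10 had positive estimates, with a median log2 fold change of 0.79. Without animal 2, limma voom and DESeq2 each called 1 higher. Fos (1.45 ± 0.39, adjusted p = 0.103) was called by edgeR without animal 2 (adjusted p = 0.0194).

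Listed neuronal and myelin markers were not called by edgeR, where 0.997% of all tested genes were called in either direction. Of 19 granule cell, 24 Purkinje cell, 19 interneuron and 22 myelin genes tested, none was called by edgeR or limma voom, with medians of -0.02, 0.01, 0.14 and -0.14. At an unadjusted p under 0.05 there were 0, 0, 2 and 3 of them, and DESeq2 called 1 myelin gene, lower. Gabra6, the granule cell GABA-A subunit, had 488, 898 and 1629 CPM in p150-negative and 735, 1413 and 1864 CPM in p150-positive cerebella (-0.47 ± 0.22, adjusted p = 0.523). Calb1, the calbindin gene of Purkinje cells, had 1215, 2545 and 3848 CPM in p150-negative and 1842, 2460 and 3539 CPM in p150-positive cerebella (-0.03 ± 0.20, adjusted p = 0.986). Mbp, a major myelin protein, stood at -0.21 ± 0.16 (adjusted p = 0.751). Among receptor subunits, Gria4 (-0.58 ± 0.13, adjusted p = 0.0227) and Gabra2 (-1.15 ± 0.27, adjusted p = 0.0391) were called lower, and Gabra2 was not called without animal 2 (adjusted p = 0.0661).

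A few astroglial genes were lower. Fabp7, a fatty acid-binding protein of Bergmann glia, had 69.7, 137 and 217 CPM in p150-negative cerebella, against 221, 291 and 392 CPM in p150-positive cerebella, with no overlap (-1.17 ± 0.23, adjusted p = 0.0103). Aqp4, the water channel of astrocyte endfeet, had 181, 429 and 562 CPM in p150-negative and 550, 795 and 913 CPM in p150-positive cerebella (-0.96 ± 0.18, adjusted p = 0.0081). S100b differed by -0.72 ± 0.14 (adjusted p = 0.0103), and Gfap, raised in many forms of gliosis, was not called (-0.15 ± 0.23, adjusted p = 0.893). Dio2, the astrocyte deiodinase that makes active thyroid hormone in brain, had 8.97, 19.6 and 29.7 CPM in p150-negative cerebella, against 30.1, 46.3 and 59.5 CPM in p150-positive cerebella, so that all p150-negative values were lower (-1.19 ± 0.24, adjusted p = 0.0158). In the astrocyte list 2 of 17 tested genes were called lower, and in the Bergmann glia list 1 of 12, where 0.274% of all tested genes were. The other 15 and 11 were not called by edgeR, though 8 of the 17 astrocyte genes had an unadjusted p under 0.05. DESeq2 called 3 astrocyte genes lower with all libraries and 2 without animal 2, and limma voom 2 and 3.

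Red blood cell genes were lower in the same libraries: 5 of the 9 listed genes were called lower, where 0.274% of all tested genes were. The count was 3 when any one of animals 1, 3, 9, 14, 4, 6, 12 and 15 was left out. Alas2, the haem synthesis enzyme of erythroid cells on the X chromosome, had 41.4, 59.4 and 109 CPM in p150-negative cerebella, against 131, 183 and 432 CPM in p150-positive cerebella, with no overlap (-1.73 ± 0.26, adjusted p = 0.000917, and 0.0033 with Xist as a covariate). Hba-a1, an alpha-globin gene, had 108, 171 and 328 CPM in p150-negative and 353, 363 and 703 CPM in p150-positive cerebella (-1.20 ± 0.24, adjusted p = 0.0129). Bpgm (-0.75 ± 0.15, adjusted p = 0.0124) and Hbb-bs (-1.18 ± 0.27, adjusted p = 0.0415) were also called. Hbb-bs was not called without animal 2 (adjusted p = 0.0871). Summed over the list, the level was 1087 to 2629 CPM in p150-negative and 2889 to 5478 CPM in p150-positive cerebella. How much blood each cerebellum held was not measured here.

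The largest decrease was that of Slc47a1, a transporter of organic cations that is expressed in the meninges, on chromosome 11, 61343401 to 61378345, minus strand. It had 0, 2.33 and 3.98 CPM in p150-negative cerebella, against 5.69, 16.2 and 27.3 CPM in p150-positive cerebella (-2.96 ± 0.54, adjusted p = 0.00591). All 8 p150-negative animals, animal 2 among them at 1.10 CPM, lay below all 7 p150-positive animals. The meningeal and fibroblast list as a whole summed to 1358 to 5495 CPM in p150-negative and 2221 to 5119 CPM in p150-positive cerebella, and Slc47a1 was its one called member of 15 tested. Nov, also known as Ccn3, a matricellular protein, had 0, 7.12 and 26.2 CPM in p150-negative and 26.0, 51.7 and 161 CPM in p150-positive cerebella (-2.88 ± 0.69, adjusted p = 0.0493). Fam46c, a poly(A) polymerase gene, differed by -2.0 ± 0.46 (adjusted p = 0.0354), and Itm2a by -1.07 ± 0.12 (adjusted p = 0.000165), the smallest adjusted p among the genes called lower. Itm2a had 89.9, 113 and 135 CPM in p150-negative and 181, 223 and 306 CPM in p150-positive cerebella. Nov, Fam46c, Hbb-bs, Gabra2, Gria4, Pdia6 and Pdia4 are among the 19 lower genes whose call was lost when at least 1 library was left out, Nov with an adjusted p of up to 0.171, while Slc47a1, Alas2, Hba-a1, Dio2, Fabp7, Aqp4, S100b, Bpgm and Itm2a kept theirs in each such fit.

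Th and Gpx3, outside the interferon lists, were higher in all 8 p150-negative animals than in any p150-positive animal. Th, tyrosine hydroxylase, the first enzyme of catecholamine synthesis and in cerebellum a product of some Purkinje cells, had 58.3, 74.0 and 175 CPM in p150-negative cerebella, against 7.99, 20.0 and 39.9 CPM in p150-positive cerebella (1.93 ± 0.31, adjusted p = 0.0016). Gpx3, a secreted glutathione peroxidase, had 39.6, 78.0 and 133 CPM in p150-negative and 5.42, 18.9 and 35.5 CPM in p150-positive cerebella (2.08 ± 0.35, adjusted p = 0.00304). Th is also in a list of genes of other brain regions and spinal cord, of which 3 of 26 were tested and Th alone was called by edgeR. That list, Th included, summed to 243 to 465 CPM in p150-negative and 210 to 269 CPM in p150-positive cerebella, and the part of such tissue in the result was not tested. Animal 2 had 80.3 CPM of Th and 67.9 CPM of Gpx3, in the middle of its group.

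**Figure D4:**
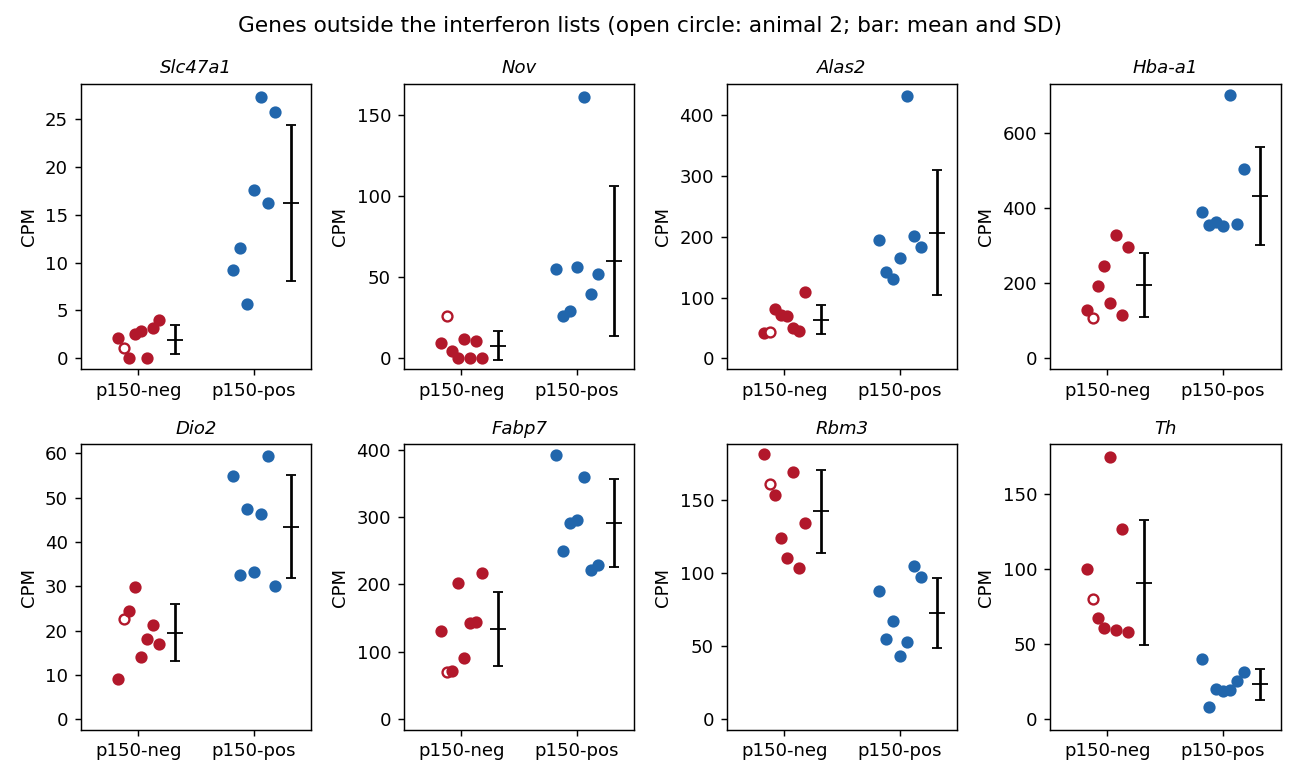
CPM of 8 genes outside the interferon lists in each animal, p150-negative on the left and p150-positive on the right of each panel, with the group mean and SD as a bar and animal 2 as an open circle. For Slc47a1, Alas2, Hba-a1, Dio2 and Fabp7 all p150-negative animals lie below all p150-positive animals, and for Th all lie above.

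The genotype difference in cerebellum was set against that in the liver (7 p150-negative and 7 p150-positive libraries) and kidney (5 and 7), using the libraries that held the genes of their labelled tissue, by the interaction of genotype and tissue. Most animals gave several tissues, but liver and kidney of animal 7 entered without its cerebellum, and animal 2 entered with its cerebellum alone. Of 14063 genes, 184 had a higher (1.31%) and 192 a lower (1.37%) genotype effect in cerebellum than in liver, 2.67% in all. With the animal as a block the counts were 111 and 85. Against kidney, 8 (0.0535%) and 9 (0.0602%) of 14940 genes had a higher and a lower effect, 0.114% in all, and 7 and 2 with that block.

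Interferon-induced genes had larger effects in cerebellum than in liver. Of the 57 listed, 17 had an effect that was higher in cerebellum and none one that was lower, and 48 of the 52 genes tested in both tissues had the larger estimate in cerebellum. In liver 39 of 56 tested members were called higher, with a median log2 fold change of 1.57, where 6.94% of all genes tested there were called higher. Ifi27l2a differed most in this list among the genes named above, by 4.86 ± 0.76 between cerebellum (6.01) and liver (1.13; adjusted p = 0.000161). The difference was 3.37 for Usp18 (adjusted p = 0.0022), 2.79 for Ifih1 (adjusted p = 0.0103), 1.73 for Eif2ak2 (adjusted p = 0.0471), 1.92 for H2-K1 (adjusted p = 0.0043) and 1.64 for B2m (adjusted p = 0.0109). For Ifit1, at 5.07 in cerebellum and 2.68 in liver, it was 2.37 (adjusted p = 0.09, 0.0228 with the animal as a block, and 0.0149 without animal 2). Isg15 had 1.57 (adjusted p = 0.262, 0.00582 with the block, and 0.0765 without animal 2), and Irf7 had 1.84 (adjusted p = 0.148, 0.00868 with the block, and 0.0161 without animal 2). H2-D1, at 1.20 and 1.01, did not pass (adjusted p = 0.871).

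Asns and the genes of cholesterol synthesis were called in liver and not by edgeR with all 15 libraries in cerebellum. Asns, at -0.29 ± 0.13 in cerebellum and 3.40 ± 0.34 in liver, had an interaction of -3.69 ± 0.36 (adjusted p = 1.14e-07). Psat1 was the other ATF4 target that differed (-1.65, adjusted p = 0.0459, and 0.191 with the animal as a block). Of 25 genes of cholesterol synthesis, 23 were tested in cerebellum and none was called by edgeR, with a median of -0.41 and 9 at an unadjusted p under 0.05, 5 called lower by DESeq2 and 2 by limma voom. Estimates were negative for 22 of the 23, and edgeR called 3 lower without animal 11 or without animal 16. The summed level was 1215 to 1819 CPM in p150-negative and 1836 to 2422 CPM in p150-positive cerebella, without overlap. In liver 24 of 24 tested were called lower, with a median of -2.70, where 4.76% of all genes tested there were called lower. For 19 of the genes the effect differed between the tissues. Msmo1, a sterol oxidase, stood at -0.64 ± 0.15 (adjusted p = 0.0515) in cerebellum and at -4.07 in liver, an interaction of 3.42 ± 0.38. Thrsp, a lipogenic regulator, was at 0.08 ± 0.16 in cerebellum and -7.29 in liver. The growth factor gene Igf1, at 0.17 ± 0.37 in cerebellum and -2.11 in liver, had an interaction of 2.32 (adjusted p = 0.00213, and 0.11 with the animal as a block). Lcn2, at 4.56 and 5.17, did not pass (-0.58, adjusted p = 0.819). Against kidney, none of the 57 interferon-induced genes passed by edgeR and 31 had an unadjusted p under 0.05, while 5 passed with the animal as a block and 10 without animal 2. In kidney itself 19 of 53 tested members were called higher, where 0.385% of all genes tested there were. Ifi27l2a had 4.03 (adjusted p = 0.0563, and 0.00393 with the block). Lrg1 (4.20, adjusted p = 0.0379) and Gpx3 (1.94, adjusted p = 0.046) had larger effects in cerebellum than in kidney, neither with the block (adjusted p = 0.281 for each).

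**Figure D5:**
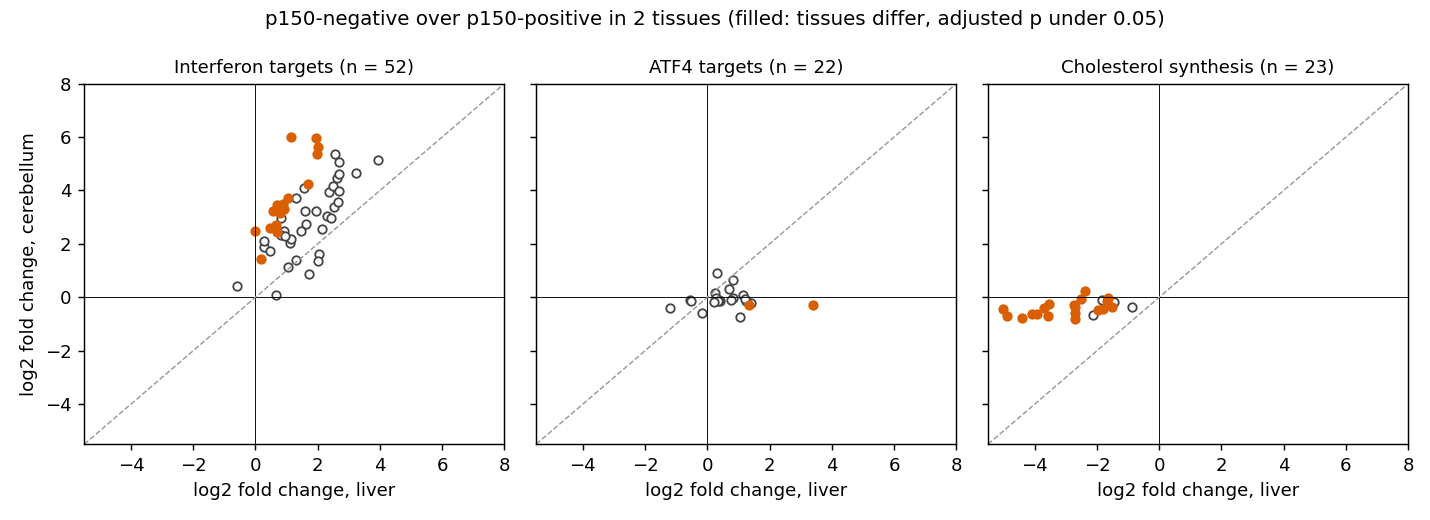
Log2 fold change of p150-negative over p150-positive animals in cerebellum (vertical) against that in liver (horizontal) for the genes of 3 lists tested in both tissues, with the dashed line of equal effects and filled points for genes whose effect differed between the tissues at an adjusted p under 0.05. Of 52 interferon-induced genes, 48 lie above the line, and 23 of 23 cholesterol synthesis genes do, while 18 of 22 ATF4 targets do not.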

How the data were processed

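Poly-A or total RNA selection is not given in the sources used here. Per the labels, RNA was taken up in TRIzol, purified with a column kit, DNase-treated and made into Nextera XT libraries. The deposited counts are whole reads per gene. Per the submitters' processing notes, STAR 2.4.2a, HTSeq 0.4.1, Picard 1.134, SAMtools 1.2, FastQC 0.11.3 and GRCm38/mm10 were used; their order, the annotation release and the strand setting are not given in the sources used here, so reads of antisense and overlapping genes cannot be told apart.

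The authors' table holds 53471 entries. Of these, 6 repeated others with identical counts and 53465 were used. Entries without a symbol after lookup (80) held 0.008% of counts. Of 861 listed symbols, 859 were found. Counts were fitted with edgeR 4.0.16 in R 4.3.3 (TMM scaling, filterByExpr with a minimum count of 10 and a total of 15, quasi-likelihood test, Benjamini-Hochberg adjustment over all genes tested, called at 0.05). SE is the log2 fold change over the square root of F, and CPM is counts per 1000000 of the library total. DESeq2 1.42.0, limma 3.58.1 voom, other filters and scalings, Xist, and left-out libraries were alternatives, and the fits were tested on simulated data. Library depth limits single values, and the shallowest cerebellum library had 944811 counts. Lower totals entered the tissue comparison, with 269213 counts in the p150-negative kidney of animal 3. The p150-negative liver of animal 16 had 532311 counts.

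The effect in cerebellum was set against liver and kidney by the interaction term, on libraries whose identity genes reached 10% of their label's median. The labels give the same animal number across tissues, so the animal pairs the samples. Same-animal deviations correlated between -0.0121 and 0.163 for liver (13 animals) and between -0.114 and 0.149 for kidney (11 animals).

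Genes named are the 15 largest increases and 12 largest decreases that were called, averaged a log2 CPM of 1 or more, and had 75% or more of the animals without p150 beyond the other group's median in the direction of the call, without predicted and sex-linked genes, 4 per list and per interaction direction, and a fixed set of genes such as Adar, Zbp1 and Asns. Vwf, Gpx3 and other called genes outside this rule were named after their values were seen. The comparison, the members of the lists and the genes were chosen with earlier results of these data known. Gene coordinates are from GENCODE M21 (GRCm38) and promoters from RefSeq. The library labelled cerebellum of animal 7 was used only in the alternative fits of all labelled libraries. A few listed genes are not reported here one by one.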

Additional observations from a re-analysis of the deposited data

Results flagged for a closer look

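Each group of 7 or 8 animals was checked for a lowest or highest value whose gap to the others was large for the group's range; 37 of 152 were marked. Chance marks about 1 in 20 independent groups, but these genes move together, the sums hold the same genes, and animal 2 was singled out beforehand for its low interferon genes, so its 26 low values are a description and no test. Its summed levels were 509.2 CPM for interferon-induced genes, 82.67 CPM for interferon-gamma-responsive genes, 858.0 CPM for MHC class I, 542.3 CPM for microglial markers and 119.6 CPM for activated endothelium. Among antiviral genes animal 2 had 0.9145 CPM of Oas1b, 4.024 CPM of Ifi27l2a, 3.475 CPM of Usp18, 8.047 CPM of Ifit1, 0.3658 CPM of Oas1a, 2.561 CPM of Isg15, 19.39 CPM of Lgals3bp, and 0 CPM of Slfn8, Ddx60, Oasl2 and Oas1g. Among sensors and signalling genes it had 1.829 CPM of Ifi204, 0 CPM of Ifi211, 0 CPM of Zbp1, 8.047 CPM of Eif2ak2 and 3.475 CPM of Irf7. In antigen presentation and chemokines it had 1.097 CPM of H2-Q7, 176.7 CPM of B2m, 32.37 CPM of H2-K1, 395.2 CPM of H2-D1 and 3.658 CPM of Cxcl10. What sets animal 2 apart was not tested.

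The other 11 marked values belonged to single animals. Animal 11, p150-negative and the shallowest cerebellum library, had 87.85 CPM of Adar, the highest, and 71.97 CPM of Atf4, the lowest of its group. Among p150-positive animals, animal 12 was highest for Nov (160.9 CPM), Alas2 (432.3 CPM), Zbp1 (5.525 CPM) and H2-K1 (68.02 CPM), and animal 5 for Ifi211 (0.2497 CPM). Animal 6 was lowest for Fam46c (6.227 CPM) and C4b (1.083 CPM), and animal 13 for Ifit1 (0 CPM) and Igf1 (8.017 CPM).

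The genotype effect differed between cerebellum and liver by the interaction test for the genes that follow, among others. The difference of log2 fold changes, cerebellum minus liver, was 4.30 for Oas1b, 4.86 for Ifi27l2a, 3.89 for Slfn8, 3.59 for Ddx60, 4.10 for Ifi204, 4.42 for H2-Q7, 3.37 for Usp18, 2.60 for Lrg1, 1.73 for Eif2ak2, 2.79 for Ifih1, 1.64 for B2m, 1.92 for H2-K1, 2.40 for Lgals3bp, 1.86 for C4b and 2.32 for Igf1. It was -2.59 for Slc47a1, -1.76 for Fam46c and -3.69 for Asns. Against kidney it was 4.20 for Lrg1. With the animal as a block, the calls of Oas1b (adjusted p = 0.05), Fam46c (0.143), Igf1 (0.11) and Lrg1 against kidney (0.281) did not hold.

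Hox genes summed to 214.8 CPM in the library labelled cerebellum of p150-positive animal 7, against 0 to 10.48 CPM in the 15 cerebella. That library entered only the alternative fits that used all labelled libraries.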

How the results depend on the processing

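No called gene reversed its direction under any alternative run. Of the 131 called genes, DESeq2 kept 129 of the 129 with a value, no filter kept 118, the Xist covariate kept 107, the identifier prefix as a block kept 107, limma voom kept 55 with all libraries, and leaving out animal 2 kept 117. The count of higher genes, 95, came to 175 by DESeq2, 28 by limma voom, 192 by DESeq2 without animal 2, and 164 without animals 2 and 11. Leaving out 1 library at a time gave 72 to 115. The count of lower genes, 36, came to 115 by DESeq2, 93 by DESeq2 without animal 2, 64 without libraries under 1000000 counts, 55 without animals 2 and 11, 22 with Xist as a covariate and without animal 2, and 23 with the prefix as a block and without animal 2. Leaving out 1 library at a time gave 18 to 64. Without animal 2, limma voom called 113 higher and 39 lower. The cause of these differences between tools was not tested.

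Within lists, limma voom called 6 interferon-induced genes, 2 interferon-gamma-responsive genes and 3 MHC class I genes with animal 2 included. Without animals 2 and 11 there were 14 interferon-gamma-responsive and 17 MHC class I genes, and MHC class I came to 7 with Xist. Leaving out 1 library at a time gave 33 to 43, 7 to 13 and 6 to 14 genes in these 3 lists. For the tissue comparison, the animal as a replicate block left 111 higher and 85 lower effects against liver and 2 lower against kidney; using all labelled libraries gave 320 lower against liver and 3 higher and 14 lower against kidney, and leaving out animal 2 gave 23 higher against kidney. Shallow libraries limit low genes most.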

Other observations

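Ribosomal protein genes had positive estimates in p150-negative cerebella for 59 of 59 tested genes, with a median log2 fold change of 0.35. None was called by edgeR, DESeq2 or limma voom, and 5 had an unadjusted p under 0.05. Their summed level was 3646 to 9877 CPM in p150-negative and 4068 to 5697 CPM in p150-positive cerebella, so the ranges overlapped. The highest sums were those of p150-negative animals 11 (9877 CPM, the shallowest library), 16 (9268 CPM) and 8 (6984 CPM). The other p150-negative animals had 3646 to 5476 CPM. The 59 estimates share these libraries and are not independent. Oligodendrocyte precursor genes (median -0.08) and 41 genes of oxidative phosphorylation (median -0.04, 5 at an unadjusted p under 0.05) were not called by any of the 3 tools. Choroid plexus genes summed to 75.2 to 3103 CPM in p150-negative and 29.5 to 2604 CPM in p150-positive cerebella, a wide range in both groups.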
